A study of Mus musculus with 34 samples.

Results

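Connexins are the proteins that form gap junctions, and 7 of their genes (Gja1, Gja4, Gjb1, Gjb2, Gjb5, Gjb6 and Gjc1) were followed here in sorted mouse mammary cells. They were chosen by gene symbol: every probe whose symbol in the probe-to-gene table is one of the 7 was taken, which gave 11 probes of 45281 on the array and 7 of 19057 genes with a named probe. Gjb2 and Gjc1 are represented by 3 probes each and the other genes by 1. Expression was measured on 34 Illumina arrays, 1 per sorted sample, in 4 groups. Of CD24+CD29+ cells there were 9 GFP+ and 6 GFP- samples, and of CD24+CD29lo cells there were 9 GFP+ and 10 GFP- samples. All 4 groups came from virgin females 4 weeks of age that carry both an MMTVrtTA and a tetracycline-responsive H2BGFP transgene and were kept on doxycycline. The labels give their strain as CD1 backcrossed to FVB, and by the methods this history is that of the H2BGFP line, while the MMTVrtTA line was FVB. GFP marks the cells in which the mouse mammary tumor virus promoter drove the transactivator, so GFP- cells carry the same transgenes and drug. The sources do not say that the samples of a group came from separate animals, and p-values then measure only the spread between these samples, which may be technical.

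A gap junction is a cluster of channels between touching cells, each made of a connexin ring in either membrane, through which ions and small metabolites pass. The alpha connexin gene Gja1 is known from the myoepithelial (basal) layer of the mammary gland, and the beta connexin genes Gjb1 and Gjb2 from its luminal, milk-secreting layer. Gja4 is known from blood vessel endothelium, Gjc1 from smooth muscle and the heart's conduction tissue, and Gjb5 and Gjb6 from the epidermis, Gjb6 also from the inner ear and glia. The CD24+CD29+ gate is enriched for basal cells and the CD24+CD29lo gate for luminal cells.

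The promoters of Gja1 and Gjb2 are shown because both genes were called in the CD29 comparison among GFP+ cells, in opposite directions. They are RefSeq windows of build GRCm38.p6, 250 bases before to 50 bases after the annotated start, read 5′ to 3′ on the gene's strand. Capitals mark the AP-1 site TGANTCA or the GC box GGGCGG, each searched on both strands, with no overlap between marked sites.
Gja1, chr10:56377050-56377349, plus strand: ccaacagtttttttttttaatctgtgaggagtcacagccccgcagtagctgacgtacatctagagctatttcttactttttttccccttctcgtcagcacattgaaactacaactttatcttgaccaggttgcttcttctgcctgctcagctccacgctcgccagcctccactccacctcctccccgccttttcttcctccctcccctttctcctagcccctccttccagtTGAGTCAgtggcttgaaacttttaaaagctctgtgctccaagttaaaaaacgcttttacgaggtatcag
Gjb2, chr14:57104653-57104952, minus strand: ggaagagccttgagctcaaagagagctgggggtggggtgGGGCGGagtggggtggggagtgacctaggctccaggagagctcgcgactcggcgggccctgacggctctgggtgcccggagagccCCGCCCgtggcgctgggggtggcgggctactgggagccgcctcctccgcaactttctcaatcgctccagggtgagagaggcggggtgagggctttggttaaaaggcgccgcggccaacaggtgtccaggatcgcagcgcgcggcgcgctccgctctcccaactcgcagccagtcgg
The Gja1 window held 1 AP-1 site, at bases 232 to 238, and no GC box. The Gjb2 window held 2 GC boxes, at bases 40 to 45 and 125 to 130, and no AP-1 site. Of 32851 promoter windows of this length, 7.8% hold the AP-1 letters and 35.7% the GC box letters, so these matches are a description of the windows only. In the RefSeq annotation Gjb2 and Gjb6 are neighbouring genes on chromosome 14, with Gja3 on the other side of Gjb2.

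Levels are log2 of the background-corrected, quantile-normalized probe signal, on which undetected connexin values lay between 4.36 and 5.50, with a median of 4.60. A probe was called detected on an array where its detection p against the negative control beads was under 0.05, and the share of probes detected ranged over the 34 arrays between 26.3% and 46.7%, with a median of 38.2%. Levels across the 4 groups and the CD29 comparisons use all 34 arrays normalized together, and the GFP comparisons use the arrays of 1 CD29 compartment normalized together, so a connexin value of the same array can differ by up to 0.09 between them. The labelled compartments carried their markers. In CD24+CD29+ against CD24+CD29lo cells, all 8 basal markers were higher among GFP+ cells and 7 of 8 among GFP- cells, while all 7 luminal markers were lower among GFP+ cells and 6 of 7 among GFP- cells. The authors' processed values fall into 2 sets of arrays, a first of 12 and a second of 22, and all 6 GFP- CD24+CD29+ samples lie in the second. No source names these sets, so they are not equated with the study's 2 collection dates.

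**Figure D1:**
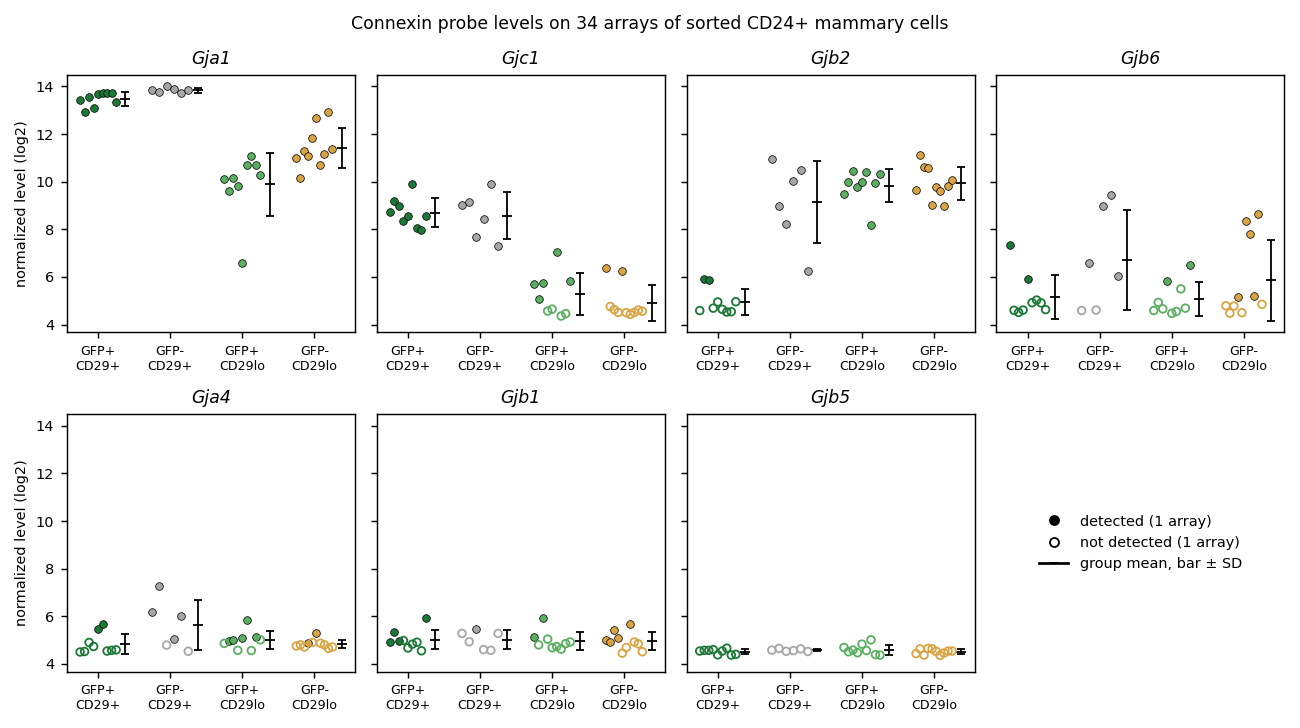
Normalized level (log2) of the main probe of each connexin gene on each of 34 arrays, by sorted group. Filled points are arrays on which the probe was detected, open points are not, and the bar at the right of each group is its mean ± SD. Gja1 and Gjc1 were higher in both CD24+CD29+ groups, Gjb2 was low in GFP+ CD24+CD29+ cells alone, and Gjb5 was not detected on any array.

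The CD29 comparison called 4 connexin genes. Gja1 and Gjc1 were higher in CD24+CD29+ than in CD24+CD29lo cells among both GFP+ and GFP- samples, and Gjb2 was called lower in CD24+CD29+ cells among GFP+ samples but not among GFP- samples. Gja4 was called higher in CD24+CD29+ cells among GFP- samples, by 0.80 (log2, limma adjusted p = 0.0494), a call that ended on leaving out single arrays. Of the 11 connexin probes, 5 were called among GFP+ samples (3 higher and 2 lower) and 3 among GFP- samples (all higher), at a limma adjusted p under 0.05 over 35870 probes. Among all probes tested, 10.4% were called in GFP+ samples (5.53% higher and 4.86% lower) and 10.3% in GFP- samples (5.29% higher). The median difference of the 11 connexin probes was 0.05 (log2) among GFP+ and 0.07 among GFP- samples, against -0.01 and 0.02 over all probes. In sorted bulk samples, fewer cells of a type that holds a transcript and less of it per cell cannot be told apart.

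Gja1, the most widely used connexin gene of the body, was detected on all 34 arrays. Its level was 12.92 to 13.73 (median 13.54) in the 9 GFP+ CD24+CD29+ samples and 13.73 to 14.01 (median 13.85) in the 6 GFP- CD24+CD29+ samples. It was 6.57 to 11.07 (median 10.17) in the 9 GFP+ CD24+CD29lo samples and 10.14 to 12.92 (median 11.24) in the 10 GFP- CD24+CD29lo samples. On the normalized scale the CD24+CD29lo arrays were thus both lower and far more spread than the CD24+CD29+ arrays. Both CD24+CD29+ means lay at percentile 99.9 of the probes, where quantile normalization brings arrays to nearly the same value. Their signals before normalization ran from 3174.3 (GFP+ replicate 3) to 21269.8 (GFP- replicate 30). The small SDs there, and the folds and GFP differences of Gja1 that use these groups, may therefore be compressed. The mean was 13.47 ± 0.30 in GFP+ CD24+CD29+ against 9.89 ± 1.33 in GFP+ CD24+CD29lo samples (SD, n = 9 each), a log2 difference of 3.57 (SE 0.39, limma adjusted p = 1.7e-08) and a fold of 11.9. It was 13.85 ± 0.10 (n = 6) in GFP- CD24+CD29+ against 11.42 ± 0.85 (n = 10) in GFP- CD24+CD29lo samples, a log2 difference of 2.43 (SE 0.43, limma adjusted p = 1.0e-04) and a fold of 5.38. The groups did not overlap in either comparison, which held for 2.77% of all probes among GFP+ and 3.21% among GFP- samples. All 6 GFP- CD24+CD29+ samples lie in the second array set. GFP- CD24+CD29lo samples averaged 10.87 in the first set (n = 4) and 11.78 in the second (n = 6). Under the alternatives the difference among GFP- samples was 2.15 to 2.64, called each time, with an adjusted p of at most 0.0355.

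By mean, Gja1 was highest in GFP- CD24+CD29+ cells, next in GFP+ CD24+CD29+ cells, then in GFP- CD24+CD29lo cells and lowest in GFP+ CD24+CD29lo cells. The middle neighbours met at 12.92, the lowest GFP+ CD24+CD29+ and the highest GFP- CD24+CD29lo level. The outer pairs of neighbours, which differ in GFP, overlapped and were not called. GFP+ CD24+CD29+ samples averaged 13.24 in the first array set (n = 4) and 13.65 in the second (n = 5). All 6 GFP- CD24+CD29+ samples, with a mean of 13.85, lie in the second set. Within the CD24+CD29lo compartment the log2 difference of Gja1 was -1.51 (SE 0.47, GFP+ minus GFP-), at 9.89 ± 1.31 (n = 9) against 11.40 ± 0.83 (n = 10) in GFP- samples, with a limma adjusted p of 0.190. With all 34 arrays in 1 fit the same difference was -1.53 with an adjusted p of 0.0341 and would be called. The difference was -0.81 within the first set of arrays and -2.03 within the second, with adjusted p of 0.153 and 0.645. The lowest GFP+ CD24+CD29lo sample, replicate 16, had a Gja1 level of 6.57 where the next was 9.61, and without it the log2 difference was -1.09 (adjusted p = 0.155).

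Markers of luminal subtypes moved with GFP in the same CD24+CD29lo arrays. The mean level of 4 measured hormone-sensing luminal markers was 4.76 to 6.14 in GFP+ CD24+CD29lo samples against 6.30 to 8.08 in GFP- CD24+CD29lo samples, with no overlap, and 3 of the 4 were called lower in GFP+ samples. The 8 basal markers averaged 5.94 to 8.87 in GFP+ CD24+CD29lo and 5.97 to 7.43 in GFP- CD24+CD29lo samples, and replicate 16 had the 5.94. Of these 8, Acta2, a smooth muscle actin gene of myoepithelial cells, was called, higher in GFP+ samples by 2.61 (log2, SE 0.61, limma adjusted p = 0.0437). The 6 luminal progenitor markers averaged 10.19 to 10.93 (median 10.57) in GFP+ CD24+CD29lo and 9.29 to 10.25 (median 9.96) in GFP- CD24+CD29lo samples, and 3 of them, Cd14, Csn3 and Ltf, were called higher in GFP+ samples, by 0.93, 0.80 and 0.87 (log2). The part of these markers in the Gja1 values was not tested. In CD24+CD29+ samples Gja1 was 13.49 ± 0.28 (n = 9) in GFP+ and 13.85 ± 0.10 (n = 6) in GFP- cells, a log2 difference of -0.36 (SE 0.13, limma adjusted p = 0.547). Under the alternatives that difference was -0.39 to -0.20. The GFP effect on Gja1 differed between the compartments by -1.14 (log2, CD29lo minus CD29+, SE 0.58), which did not pass the test (limma adjusted p = 0.617).

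Gjc1 was higher in CD24+CD29+ cells in both CD29 comparisons. Its main probe, ILMN_2752275, was detected on all 15 CD24+CD29+ arrays, at 7.99 to 9.90 (median 8.56) in GFP+ and 7.29 to 9.92 (median 8.73) in GFP- samples. In CD24+CD29lo samples it was detected on 5 of 9 GFP+ arrays, at 4.36 to 7.05 over all 9 (median 5.07), and on 2 of 10 GFP- arrays, at 4.43 to 6.37 over all 10 (median 4.58). Of the 19 CD24+CD29lo arrays, 12 were therefore at background, and the highest of them, GFP+ replicate 19 at 7.05, was below the lowest CD24+CD29+ array. The log2 difference was 3.43 among GFP+ samples (SE 0.37, limma adjusted p = 1.1e-08), with means of 8.70 ± 0.59 in CD24+CD29+ and 5.27 ± 0.89 in CD24+CD29lo cells (SD, n = 9 each). It was 3.66 among GFP- samples (SE 0.40, adjusted p = 2.5e-08), with means of 8.58 ± 0.98 (n = 6) in CD24+CD29+ and 4.92 ± 0.75 (n = 10) in CD24+CD29lo cells. No fold is given because of the arrays at background, and with no background correction the differences were 1.95 among GFP+ and 2.01 among GFP- samples, both still called (adjusted p = 3.4e-08 and 1.5e-07).

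By mean Gjc1 was highest in GFP+ CD24+CD29+ cells, next in GFP- CD24+CD29+ cells, then in GFP+ and last in GFP- CD24+CD29lo cells, and the neighbours that differ in GFP overlapped. GFP+ minus GFP- was 0.13 (log2, SE 0.39, limma adjusted p = 0.932) in CD24+CD29+ cells and 0.37 (SE 0.37, adjusted p = 0.809) in CD24+CD29lo cells. The other Gjc1 probes carried little signal. On ILMN_1232733, 3 GFP+ CD24+CD29+ arrays of 9 showed detection, at up to 6.19, and no other array did. It passed the test among GFP+ samples (limma adjusted p = 0.0385), with no fold given because it was not detected in GFP+ CD24+CD29lo cells, and leaving out any 1 of 10 arrays (replicates 4, 9, 10, 12, 15, 16, 22, 23, 24 and 34) took the adjusted p to as much as 0.0950. ILMN_1253346 was detected on 1 array and was not called in either compartment comparison.

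Some stromal markers were also higher in CD24+CD29+ cells in the CD29 comparisons that called Gja1 and Gjc1. The 5 fibroblast markers averaged 5.17 to 6.86 in GFP+ CD24+CD29+ against 4.79 to 5.64 in GFP+ CD24+CD29lo samples, and 6.25 to 7.75 in GFP- CD24+CD29+ against 4.67 to 5.86 in GFP- CD24+CD29lo samples. Of these 5, Dcn, a matrix proteoglycan gene, was called among GFP+ samples, at 2.86 (log2, SE 0.57, limma adjusted p = 4.5e-04), and Dcn and Col3a1 were called among GFP- samples, at 2.51 (SE 0.62, adjusted p = 0.00595) and 3.26 (SE 0.43, adjusted p = 7.8e-07). The 5 pericyte markers averaged 4.86 to 5.99 in GFP+ CD24+CD29+ against 4.78 to 5.12 in GFP+ CD24+CD29lo samples, and none was called there by limma (1 had an unadjusted p under 0.05). They averaged 5.49 to 7.03 in GFP- CD24+CD29+ against 4.70 to 5.52 in GFP- CD24+CD29lo samples, where Rgs5 and Des were called, at 3.43 (SE 0.45, adjusted p = 7.8e-07) and 2.73 (SE 0.59, adjusted p = 0.00138). Fabp4, an adipocyte marker also made by endothelium, was called at 2.65 (SE 0.56, adjusted p = 0.00102) among GFP+ and 2.31 (SE 0.62, adjusted p = 0.0111) among GFP- samples. It was the only 1 of 3 adipocyte markers tested to be called, and the median difference of the 3 was 0.19 and 0.07. Of the 4 adipocyte markers read, 3 were not detected on any GFP- and 1 on any GFP+ CD24+CD29+ array. The part of these markers in the Gja1, Gjc1 and Gja4 values was not tested.

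**Figure D2:**
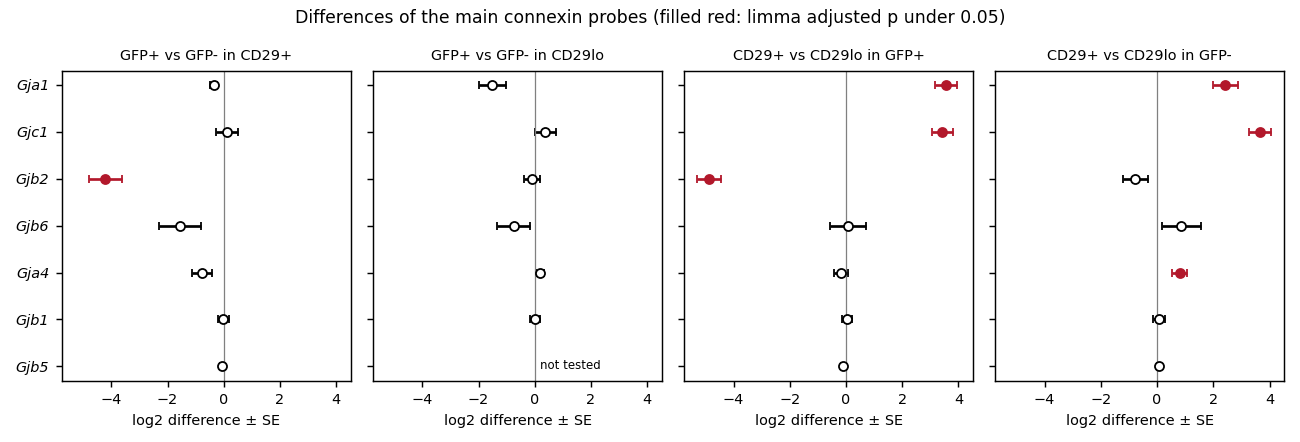
Log2 difference with its standard error for the main probe of each connexin gene in 4 comparisons, with positive values higher in the first-named group. Filled red points passed a limma adjusted p under 0.05. Gja1 and Gjc1 stand right of 0 in both CD29 comparisons, and Gjb2 stands 4.21 left of 0 for GFP in CD24+CD29+ cells and 4.87 left of 0 for CD29 in GFP+ cells.

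Gjb2, a luminal connexin gene of the gland, differed with GFP in the CD24+CD29+ compartment and not detectably in the CD24+CD29lo compartment. Its main probe, ILMN_2999627, had levels of 4.55, 4.55, 4.60, 4.65, 4.70, 4.92, 4.93, 5.80 and 5.81 in the 9 GFP+ CD24+CD29+ samples. In the 6 GFP- CD24+CD29+ samples they were 6.19, 8.24, 8.98, 10.06, 10.50 and 10.95. The probe was thus at background in 7 of 9 GFP+ samples, detected in replicates 3 and 9, and detected in every GFP- sample, with no overlap between the groups. The means were 4.95 ± 0.51 and 9.15 ± 1.76, a log2 difference of -4.21 (SE 0.58, limma adjusted p = 0.0274), with no fold given because most GFP+ samples were at background. It was the only one of 9 tested connexin probes to be called, where 0.0305% of 32737 probes were called in either direction, and the groups did not overlap for 0.131% of them. The median difference of the 9 was -0.36, against -0.02 over all probes.

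The Gjb2 call in CD24+CD29+ cells lay close to the threshold, while its size did not change sign under any setting. The difference was between -4.78 and -3.84 on leaving out 1 array at a time, and leaving out any of 11 of the 15 arrays (GFP+ replicates 1, 3, 9, 11, 15, 17, 24, 28 and 32 and GFP- replicates 21 and 29) took the adjusted p above 0.05, to at most 0.0849. Within the second set of arrays, the only one that holds both groups, it was -4.47 (limma adjusted p = 0.575, with no probe called of 35373), and -4.44 (adjusted p = 0.0827) in a fit that took the array set into account. With no background correction it was -2.55 (adjusted p = 0.126).

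In CD24+CD29lo cells Gjb2 was detected on all 19 arrays. Its level was 8.19 to 10.42 (median 9.97) in GFP+ and 8.98 to 11.12 (median 9.79) in GFP- samples, so the ranges overlapped almost entirely. The log2 difference was -0.10 (SE 0.30, limma adjusted p = 0.951). No connexin probe of 10 tested was called for GFP in this compartment, where 1.03% of 31919 probes were called by limma. The methods' t-test called none of the 10 either, and 1 of them, Gja1, had an unadjusted p under 0.05, as did 9.86% of all probes tested. The median difference of the 10 was 0.00 against 0.01 over all probes. The difference of the Gjb2 effect between compartments was 4.10 (log2, CD29lo minus CD29+, SE 0.63), with a limma adjusted p of 6.6e-04, in a fit that called 0.270% of 35870 probes. It was the only one of 11 connexin probes called there. This difference was called under every alternative run and on leaving out each of the 34 arrays, between 2.46 and 4.74 under the alternatives and with an adjusted p of at most 0.0490.

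Set against CD29, Gjb2 was lower in CD24+CD29+ cells among GFP+ samples, at 4.96 ± 0.55 against 9.83 ± 0.69 in CD24+CD29lo cells (SD, n = 9 each). The log2 difference was -4.87 (SE 0.42, limma adjusted p = 1.5e-10), with no overlap, and it was called under every alternative, at -5.17 in the second array set to -3.00 with the authors' processed values. Among GFP- samples it was 9.16 ± 1.73 (n = 6) in CD24+CD29+ cells and 9.93 ± 0.69 (n = 10) in CD24+CD29lo cells, a log2 difference of -0.77 (SE 0.46, limma adjusted p = 0.347). The interaction just given is also the test of the difference between these 2 values. By mean it was highest in GFP- and next in GFP+ CD24+CD29lo cells, then in GFP- and last in GFP+ CD24+CD29+ cells, and the first 3 of these overlapped.

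A second Gjb2 probe, ILMN_1227148, had the same order of CD24+CD29+ groups by mean and was not called for GFP. In CD24+CD29+ cells 1 of 9 GFP+ arrays detected it, at 4.46 to 5.50 over all 9, and 4 of 6 GFP- arrays did, at 4.69 to 8.15 over all 6. Its GFP difference in the compartment was -1.78 (log2, SE 0.47, limma adjusted p = 0.426) and its difference of effects 2.17 (SE 0.79, adjusted p = 0.402). Among GFP+ samples it was called lower in CD24+CD29+ than in CD24+CD29lo cells, with a log2 difference of -2.98 (SE 0.53, adjusted p = 9.7e-05). Both probes disagreed on single arrays: GFP- CD24+CD29lo replicate 14 read 9.03 on the main probe and 4.58, not detected, on the second. GFP- CD24+CD29+ replicate 21 read 8.97 and 5.00 (not detected), and replicate 33 of that group 6.27 and 4.69 (not detected). The third probe, ILMN_2604713, was detected on 7 CD24+CD29lo arrays only, at up to 5.40, and was called in no comparison.

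**Figure D3:**
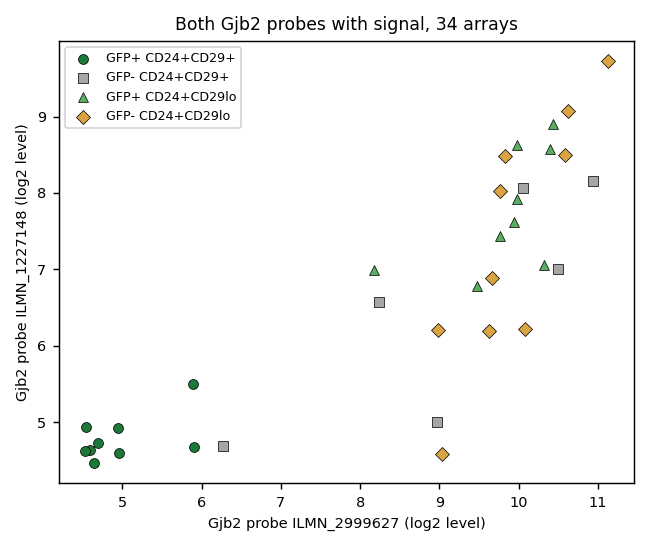
Level (log2) of the second Gjb2 probe against that of the main probe, 1 point per array, with the 4 groups by colour and shape. The 9 GFP+ CD24+CD29+ arrays sit at or below 5.90 on the main probe, and GFP- CD24+CD29lo replicate 14 sits at 9.03 on the main probe and 4.58 on the second. GFP- CD24+CD29+ replicate 21 sits at 8.97 on the main probe and 5.00 on the second.

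Levels of markers of other cells were read in the same CD24+CD29+ samples, and their part in the Gjb2 result was not tested. The 7 luminal markers averaged 6.15 to 7.47 (median 6.62) in GFP+ CD24+CD29+ and 6.35 to 8.06 (median 6.99) in GFP- CD24+CD29+ samples, and none of the 7 was called for GFP by limma (1 had an unadjusted p under 0.05). The 6 luminal progenitor markers averaged 5.13 to 6.69 (median 5.51) in GFP+ and 5.97 to 7.21 (median 6.46) in GFP- samples, and none of the 5 tested was called by limma (1 had an unadjusted p under 0.05). The median GFP difference of these 5 was -0.84 (log2), against -0.15 for the 7 luminal markers. For the difference of GFP effects, 5 of 6 luminal progenitor markers had an unadjusted limma p under 0.05 and none was called. Their median was 1.60 (log2, CD29lo minus CD29+), the sign of Gjb2. Of the 7 luminal markers 1 had such a p and none was called, with a median of 0.58. The 3 highest luminal levels among GFP+ arrays were 7.47, 7.37 and 7.26, in replicates 3, 11 and 9. Their Gjb2 levels were 5.90, 4.69 (not detected) and 5.89, and their luminal progenitor levels 6.47, 6.69 and 6.03. Both GFP+ arrays that detected Gjb2 are among these 3. Replicate 11, where Gjb2 was not detected, had the highest luminal progenitor level of its group. GFP- replicate 33 had the lowest luminal, luminal progenitor and Gjb2 levels of its group, at 6.35, 5.97 and 6.27. A luminal level of 6.57 in GFP- replicate 13 came with a Gjb2 level of 10.94. GFP- replicate 25 had the highest luminal and luminal progenitor levels of its group, 8.06 and 7.21. Its Gjb2 level was 8.24, above that of replicate 33 only. Of 5 pericyte markers, 3 were detected in some GFP+ CD24+CD29+ sample (Pdgfrb and Kcnj8 in none) and all 5 in some GFP- one, and their mean was 4.86 to 5.99 in GFP+ against 5.49 to 7.03 in GFP- samples. None of the 5 was called for GFP in this compartment by limma (2 had an unadjusted p under 0.05), while the difference of GFP effects was called for Rgs5, at 3.25 (log2, CD29lo minus CD29+, SE 0.60, adjusted p = 0.00669).

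Rgs5, a regulator of G protein signalling that marks pericytes, was not detected in 8 of 9 GFP+ CD24+CD29+ samples, with 7.10 in replicate 28, and was at 7.85 to 9.47 in 5 of 6 GFP- CD24+CD29+ samples. GFP+ replicate 28 had a Gjb2 level of 4.54, at background. GFP- replicate 25, in which Rgs5 was not detected (4.50), had a Gjb2 level of 8.24 and the highest luminal list level of its group. The 7 endothelial markers averaged 4.54 to 5.05 in GFP+ and 4.61 to 5.28 in GFP- CD24+CD29+ samples. Kdr, Tek, Emcn and Eng were not detected in either group. Pecam1 was detected in some GFP- sample and in no GFP+ sample, while Cdh5 and Esam were each detected in some sample of both groups. None of the 4 tested was called for GFP in this compartment by limma (1 had an unadjusted p under 0.05).

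**Figure D4:**
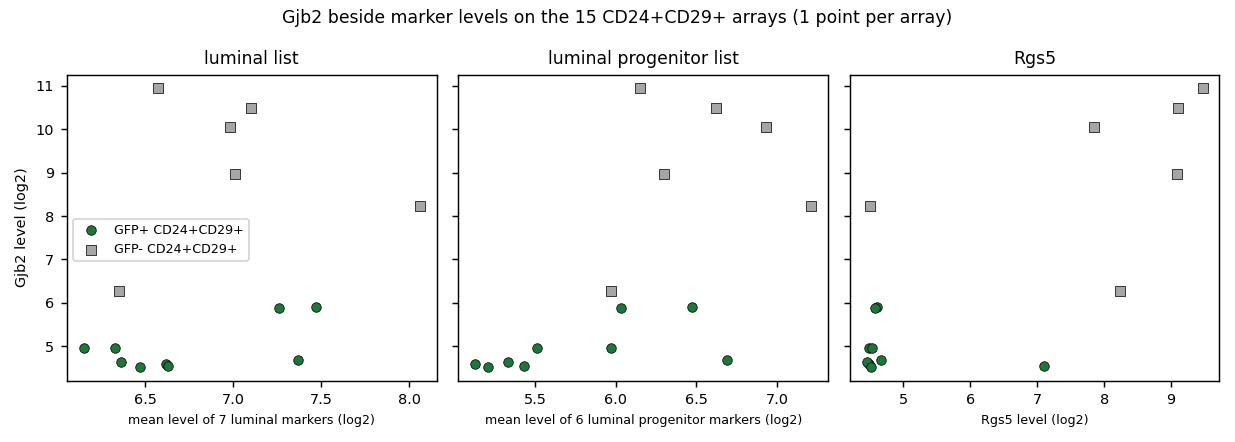
Gjb2 level (log2, main probe) against the mean level of 7 luminal markers, the mean level of 6 luminal progenitor markers and the level of Rgs5 on the 15 CD24+CD29+ arrays, 1 point per array. GFP- arrays lie above GFP+ arrays on the Gjb2 axis. Luminal means ran from 6.35 to 8.06 on GFP- and from 6.15 to 7.47 on GFP+ arrays. Luminal progenitor means ran from 5.97 to 7.21 on GFP- and from 5.13 to 6.69 on GFP+ arrays, and 5 of 6 GFP- arrays lie at an Rgs5 level of 7.85 or more.

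Gjb6, the chromosome neighbour of Gjb2, was detected on some but not all arrays of each group. The probe lay above background on 2 of 9 GFP+ and 4 of 6 GFP- arrays of CD24+CD29+ cells and on 2 of 9 GFP+ and 5 of 10 GFP- arrays of CD24+CD29lo cells. The highest GFP+ levels were 7.35 in CD24+CD29+ replicate 1 and 6.49 in CD24+CD29lo replicate 34. The highest GFP- levels were 9.43 and 8.98 in CD24+CD29+ replicates 30 and 29, and 8.63, 8.34 and 7.80 in CD24+CD29lo replicates 27, 18 and 20, so all 5 arrays above 7.5 were GFP- arrays of the second set. GFP+ minus GFP- was -1.55 (log2, SE 0.74, limma adjusted p = 0.571) in CD24+CD29+ cells and -0.76 (SE 0.58, adjusted p = 0.728) in CD24+CD29lo cells. Gjb6 was called in no comparison, and within the first set of arrays the second of these differences was 0.24.

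Gja4, an endothelial connexin gene, was near background. In the CD24+CD29+ compartment 2 of 9 GFP+ and 4 of 6 GFP- arrays detected it, and in the CD24+CD29lo compartment 5 of 9 GFP+ and 2 of 10 GFP- arrays did. The levels over 6 were all in GFP- CD24+CD29+ samples, 7.26 in replicate 21, 6.17 in replicate 13 and 6.02 in replicate 30. Among GFP- samples it was higher in CD24+CD29+ than in CD24+CD29lo cells by 0.80 (log2, SE 0.27, limma adjusted p = 0.0494), with overlapping groups at 5.63 ± 1.04 (n = 6) and 4.83 ± 0.18 (n = 10). Leaving out any 1 of 12 of the 16 arrays (GFP- CD24+CD29+ replicates 13, 21 and 30 and 9 GFP- CD24+CD29lo replicates) ended that call, with an adjusted p of up to 0.220 and a difference of 0.48 to 0.81 in those 12 fits. Taking the array set into account it was 0.72 (adjusted p = 0.112). Its GFP difference in CD24+CD29+ cells was -0.78 (SE 0.35, limma adjusted p = 0.561). The pericyte and endothelial values given for these samples apply here too, and their part was not tested.

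The remaining members showed little or no signal. Gjb1, the liver and Schwann cell connexin gene, reached detection on 4 of 9 GFP+ and 1 of 6 GFP- arrays of CD24+CD29+ cells and on 2 of 9 GFP+ and 5 of 10 GFP- arrays of CD24+CD29lo cells, with levels of 4.45 to 5.92 over all 34 arrays. Its means were 5.01, 5.02, 4.96 and 4.95 in the same order, and it was called in no comparison. Gjb5 was not detected on any of the 34 arrays, at 4.36 to 5.01, and a transcript that the single probe does not reach would read the same.

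The genes whose pattern over the 34 arrays lay nearest to each of 4 members were found by the root mean square difference of mean-centred levels, among probes with 1 symbol that passed the filter. Nearest to Gja1 were Prnp (0.70), Pdlim4 (0.81) and Aatk (0.83), where the SD of Gja1 itself was 1.78. Prnp averaged 8.55 and 9.10 in GFP+ and GFP- CD24+CD29+ samples, and 5.30 and 6.39 in GFP+ and GFP- CD24+CD29lo samples. Nearest to Gjc1 (SD 1.96) were Antxr1 (0.68), Gpc3 (0.75) and 6330403K07Rik (0.76). The nearest to Gjb2 (SD 2.32) were much farther off, at 1.37 for Prxl2a, 1.38 for Atp2a3 and 1.43 for Edn1. Atp2a3 averaged 6.05 in GFP+ and 8.33 in GFP- CD24+CD29+ samples, a smaller gap than that of Gjb2. Nearest to Gjb6 (SD 1.46) were Tbc1d2 (1.00), Ctdspl2 (1.03) and another connexin gene, Gjc3 (1.07). Gjc3 had its highest levels, 7.24 and 7.05, in GFP- CD24+CD29+ replicates 29 and 30, as Gjb6 did.

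Other genes of cell-to-cell channels and junctions were read from 3 lists. Of 14 other connexin genes, 9 had a named probe and 7 were tested against CD29. Of these 7, 1 was called higher in CD24+CD29+ cells among GFP- samples and none among GFP+ samples, where 5.29% and 5.53% of all probes were. It was Gjd2, a neuronal connexin gene, at 4.58 to 5.59 in GFP- CD24+CD29+ cells (4 of 6 arrays detected) and not detected in GFP- CD24+CD29lo cells (limma adjusted p = 0.00704). None of the 7 tested in CD24+CD29+ cells and none of the 6 in CD24+CD29lo cells was called for GFP by limma, with 3 and 0 at an unadjusted p under 0.05.

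Pannexins form channels of a like shape from unrelated proteins, and of the 3 genes Panx1 alone was called. It had levels of 9.83 to 11.51 in GFP+ CD24+CD29+ against 4.80 to 8.16 in GFP+ CD24+CD29lo samples, a log2 difference of 4.22 (SE 0.45, limma adjusted p = 9.5e-09). Levels were 9.71 to 11.81 in GFP- CD24+CD29+ against 4.66 to 8.53 in GFP- CD24+CD29lo samples, a log2 difference of 5.19 (SE 0.49, limma adjusted p = 1.2e-09). Panx1 thus had the same direction as Gja1 and Gjc1, with no overlap in either comparison. Groups did not overlap for 2.77% of all probes among GFP+ and 3.21% among GFP- samples.

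Of 17 genes whose proteins bind, anchor or modify connexins or lie in the same junctions, 13 had a named probe and 12 were tested against CD29. Among GFP+ samples 3 were called higher and 1 lower in CD24+CD29+ cells, and among GFP- samples 2 higher and 1 lower. Over all probes tested, 10.4% were called among GFP+ and 10.3% among GFP- samples. Cav1, the main protein of caveolae, was higher in CD24+CD29+ cells, by a log2 difference of 4.11 (SE 0.31, limma adjusted p = 6.6e-12) among GFP+ samples and by 2.00 (SE 0.34, adjusted p = 6.7e-05) among GFP- samples. In CD24+CD29lo cells, where 1.03% of all probes were called for GFP, Cav1 was lower in GFP+ than in GFP- samples. The log2 difference was -2.07 (SE 0.36, limma adjusted p = 0.00434), and Cav1 was the one gene of 11 tested that was called there. Its GFP effect differed between compartments by -2.11 (CD29lo minus CD29+, SE 0.46, adjusted p = 0.0336).

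Ocln, a strand protein of tight junctions, was not detected on any GFP+ CD24+CD29+ array and read 6.57 to 8.12 in GFP+ CD24+CD29lo samples (limma adjusted p = 1.8e-11). Among GFP- samples Ocln was lower in CD24+CD29+ cells, with a log2 difference of -2.40 (SE 0.25, adjusted p = 6.6e-09). Nedd4, a ubiquitin ligase that acts on the Gja1 protein, was higher in CD24+CD29+ cells by 1.08 (SE 0.29, adjusted p = 0.0109) among GFP+ and 1.00 (SE 0.32, adjusted p = 0.0370) among GFP- samples. Ctnna1, an adherens junction catenin, was higher by 0.42 (SE 0.11, adjusted p = 0.00700) among GFP+ samples. None of the 12 tested in CD24+CD29+ cells was called for GFP by limma, with 1 at an unadjusted p under 0.05.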

How the data were processed

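Total RNA of FACS-sorted cells was isolated with a micro column kit, amplified with a NuGEN system and hybridized to Illumina Mouse WG-6 version 2 arrays. The deposited intensity values are the authors' probe signals, without normalization. The deposited fraction beside each is 1 minus the detection p. Another deposited table holds log2 values processed by the authors. The methods name quantile normalization in GeneSpring and an empirical Bayes correction for 2 collection dates, without saying which made that table. The submitters' processing notes name R 2.14.1. The genome build behind the probes is not given in the sources used here.

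Signals were processed with neqc of limma 3.58.1 (offset 16) in R 4.3.3. A probe stayed in where, in 1 group or more, 80% of arrays read it above their own 20th percentile. Two-sided moderated tests of limma used Benjamini-Hochberg adjustment over all probes kept, with a threshold of 0.05. For GFP each compartment was fitted alone, and for CD29 and the interaction 4 group means were fitted on 34 arrays. Of 45281 probes, 34885 had 1 symbol in the probe table, 18 several and 10378 none. Only probes with 1 symbol were named.

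The members and gene lists were chosen with earlier results of these data known. The rule for named genes took every probe of the 7 members, the probe of highest mean as main, up to 4 called genes of largest change per list and comparison, and the 3 nearest patterns for members whose group means span over 1 log2 unit. Gjc3 came through its pattern, and the marker genes named (Acta2, Cd14, Csn3, Ltf, Dcn, Col3a1, Rgs5, Des, Pdgfrb, Kcnj8, Fabp4, Kdr, Tek, Emcn, Eng, Pecam1, Cdh5, Esam) were singled out after their values were seen. Marker lists of macrophage and myeloid, lymphoid, adipocyte, Schwann and fibroblast cells were also read. The GFP fit of each compartment was also run on simulated log2 values, drawn as independent and normally distributed. That simulation began after normalization and filtering and held no array sets, so it does not test these. The number of arrays limits the precision.

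Alternatives were no background correction, offset 50, the authors' processed values, the methods' t-test, no filter, a filter on detection, array set as a term, each array set alone, all 34 arrays or only 2 groups in 1 fit, array weights, and leaving out each array.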

Additional observations from a re-analysis of the deposited data

Results flagged for a closer look

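The GFP effect on Gjb2 (main probe) differed between the compartments by a test of the difference itself, at 4.10 (log2, CD29lo minus CD29+, limma adjusted p = 6.6e-04).

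Within a group, 9 of 44 probe and group combinations had a highest or lowest sample that stood apart from the others by Dixon's test at 95%. Chance alone gives this in about 1 of 20 groups of independent, normally distributed values. Many connexin values lie at background and the probes share arrays, so that rate is no measure for these 44. Both lowest samples were GFP+ CD24+CD29lo arrays: replicate 16 at 6.57 for Gja1, where the next was 9.61, and replicate 22 at 8.18 for the main Gjb2 probe, where the next was 9.47. Replicate 22 is the array with the lowest share of probes detected, 26.3%. The highest samples in GFP+ CD24+CD29+ cells were replicate 1 at 7.35 for Gjb6, replicate 9 at 5.50 for the second Gjb2 probe and replicate 15 at 5.68 for Gjc1 probe ILMN_1253346. In GFP+ CD24+CD29lo cells they were replicate 19 at 5.83 for Gja4, replicate 10 at 5.91 for Gjb1 and replicate 22 at 5.10, not detected, for Gjc1 probe ILMN_1253346. In GFP- CD24+CD29lo cells replicate 18 stood out at 5.28 for Gja4.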

How the results depend on the processing

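No paired analysis was possible because the labels do not say which samples share an animal or a sort. The replicate numbers are only the running sample numbers of the titles. For GFP in CD24+CD29lo cells, the count of connexin probes called was 0 and became 1 with all 34 arrays in 1 fit. For GFP in CD24+CD29+ cells it was 1 and became 0 with no background correction, offset 50, the methods' t-test, array set as a term and the second array set alone. On leaving out 1 array at a time the counts were 0 to 0 and 0 to 1 for GFP in these compartments, 4 to 5 for CD29 in GFP+ cells, 2 to 3 for CD29 in GFP- cells and 1 to 1 for the interaction. Members whose group means span over 1 log2 unit numbered 4, and 3 with no background correction or the authors' processed values, where Gjb6 fell to 0.90 and 0.76. Of the differences that were not called, Gjb2 for GFP in CD24+CD29lo cells (-0.10) was 0.22 in the second array set and -0.20 to 0.10 on leaving out 1 array, positive without replicate 6 (0.03) or 22 (0.10). Gjb6 there (-0.76) was 0.24 in the first array set. The interaction for Gjc1 (0.23) was -0.03 to 0.49 on leaving out 1 array. Of 211 values under the other alternatives, 191 kept direction and side. The Gja4 call ended under 7 alternatives (0.27 to 0.80), among them the authors' processed values. Over all probes, calls for GFP in CD24+CD29lo cells were 329, and 564 with the authors' processed values, 526 with array set as a term, 519 with array weights and 70 in the second set. For GFP in CD24+CD29+ cells they were 10, and 4 with the authors' processed values, 18 with the detection filter, 55 with all 34 arrays and 0 under the 5 settings that ended the Gjb2 call. In the second set alone, calls for CD29 were 1948 (3725 in the full data) in GFP+ and 2145 (3705) in GFP- cells. For the interaction they were 97, and 178 with the authors' processed values and 39 in the second set. The causes were not tested. Levels near 4.5 carry no order, since they lie at background.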

Other observations

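No fibroblast, macrophage and myeloid, lymphoid or Schwann marker was called for GFP by limma in either compartment, with 1 fibroblast and 1 lymphoid marker at an unadjusted p under 0.05 in CD24+CD29+ cells. Of 3 adipocyte markers tested in CD24+CD29lo cells, 1 was called. It was Fabp4, a fatty acid binding protein also made by endothelium, lower in GFP+ than in GFP- cells. The log2 difference was -2.13 (SE 0.42, limma adjusted p = 0.0129), and the median of the 3 was -0.23.

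Col3a1, a fibrillar collagen gene of connective tissue, was at 4.50 to 7.04 in GFP+ CD24+CD29+ samples and 6.87 to 9.70 in GFP- CD24+CD29+ samples. In CD24+CD29lo cells its highest levels were 7.42 and 6.27, in GFP- replicates 18 and 27, which also held the highest Gjb6 and Gja1 levels of their group. The mean of the 5 fibroblast markers was 5.86 in replicate 18 but 5.17 in replicate 27, where the median of the group was 5.29. In GFP- replicate 20 it was 5.84, with a Gja1 level of 10.71 and a Gjb6 level of 7.80. A link between these levels was not tested.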
